A study of Homo sapiens with 6 samples.

Results

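The serine/arginine-rich splicing factors (SR proteins) were described in K562 cells through 10 genes, SRSF1, SRSF2, SRSF3, SRSF4, SRSF5, SRSF6, SRSF7, SRSF9, SRSF10 and SRSF11. Members were taken by gene name, with earlier results of these data known. Every quantified transcript that the GENCODE annotation assigns to these genes was taken, 120 transcripts of 251612 and 10 genes of 62252. K562 is an established line of human erythroid leukemia cells. In the Chelator group cells were treated overnight with 10 µM 21H7, an iron chelator, and in the DMSO group with a matched volume of the solvent alone. Cells of both groups were grown in RPMI medium with fetal bovine serum and an antibiotic and antimycotic mix. Each group had 3 libraries of polyadenylated RNA, which the submitters call biological replicates.

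SR proteins bind exonic sequences of pre-mRNA through RNA recognition motifs and recruit the splicing machinery through a domain rich in arginine and serine. Their kinases of the CLK and SRPK families phosphorylate that domain, and TNPO3 carries the phosphorylated proteins into the nucleus. Most SR genes hold a poison exon or a spliced 3' end, and transcripts that carry it meet a stop codon upstream of an exon junction and are degraded by nonsense-mediated decay. Many SR proteins promote the decay form of their own transcript, so the ratio of decay to coding transcripts is a known point of control of SR protein level.

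Each DMSO library held 78.6 to 90.4 M estimated counts (M, 1e+06) and each Chelator library 85.4 to 101.1 M. The summed level of 10 genes that mark K562 cells, among them globins and GATA1, was 12743 to 14025 TPM (a level corrected for transcript length and library depth) in DMSO and 19577 to 20708 in Chelator. Of the 10, 5 were higher, the 4 globins and TFRC, and 3 were lower, KLF1 (log2 change −0.72), LMO2 (−0.72) and TAL1 (−0.28). Markers of other cells summed to 84.1 to 90.9 TPM and 73.1 to 81.7 TPM, and MS4A1 was at 0 in all 6 libraries. Of the 8 other markers tested, 5 were higher and 2 lower in Chelator at an adjusted p under 0.05, and their part in the results was not tested. The typical fragment length, read from salmon's effective lengths, was 200 to 218 bases in Chelator against 252 to 264 bases in DMSO. With no overlap between the groups in fragment length, its effect on transcript levels and that of the chelator cannot be told apart. RNA came from whole cultures, so fewer cells with a transcript and less of it per cell cannot be told apart either.

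The annotation holds 12 poison exons in these genes, each an exon that lies in a decay transcript and in no coding transcript and that coding transcripts skip. Of these, 8 in 6 genes reached a mean of 0.5 TPM both with and without the exon. In 6 of the 8 the decay transcript's annotated stop codon lies inside the exon itself. The stretch from the first base of the exon to that stop is shown for 3 of them, since it is where translation of the included form ends. Capitals mark the stop codon.
SRSF6, 268-base exon, chr20:43459153-43459420, plus strand: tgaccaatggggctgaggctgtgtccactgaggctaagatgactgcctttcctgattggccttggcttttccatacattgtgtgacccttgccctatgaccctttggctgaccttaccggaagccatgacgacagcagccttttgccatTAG
SRSF3, 456-base exon, chr6:36599821-36600276, plus strand: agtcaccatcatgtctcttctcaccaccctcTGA
SRSF7, 449-base exon, chr2:38748898-38749346, minus strand: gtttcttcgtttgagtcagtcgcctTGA
All coordinates are on GRCh38. The SRSF6 stop codon begins at base 150 of its exon, the others shown at bases 32 and 26. From the stop to the last exon junction of the transcript there were 534 bases in the SRSF6 transcript, 548 in the SRSF3 transcript with the 456-base exon, and 697 in the longer SRSF7 transcript. Reading on in the same frame, the SRSF6 exon holds 3 stop codons, the 456-base SRSF3 exon 5 and the SRSF7 exon 8. The 456-base SRSF3 exon is a multiple of 3 bases long and the other two are not. In SRSF2 and SRSF4 the annotated stop lies upstream of the tested exon, 209 and 875 bases before the last junction.

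The level of SRSF1, the founding member of the family and a broad activator of exon inclusion, was lower in Chelator. SRSF1 was at 582, 678 and 632 TPM in DMSO and at 288, 319 and 344 TPM in Chelator. The groups did not overlap, and the log2 fold change of normalized counts was −1.02 ± 0.08 (SE, n = 3 per group, adjusted p = 1.39e-38 by DESeq2). It was the 1 SR gene called, that is past both an adjusted p of 0.05 and a log2 change of 1 in either direction, as were 10.8% of all genes tested. The call rests on a value at the border, since the log2 change was −0.97 without Chelator replicate 1 and −0.99 without DMSO replicate 3, and −0.98 with TMM size factors.

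SRSF2, which also acts in exon activation and is recurrently mutated in myeloid malignancy, was at 265, 289 and 283 TPM in DMSO and at 160, 189 and 183 TPM in Chelator. Its groups did not overlap, and the log2 change was −0.69 ± 0.08 (adjusted p = 3.98e-17). SRSF6, SRSF10 and SRSF4 were also lower, with log2 changes of −0.41 ± 0.07, −0.33 ± 0.07 and −0.29 ± 0.07 (SE). SRSF6 was at 115, 129 and 117 TPM in DMSO and 85.6, 94.1 and 97.5 TPM in Chelator, again without overlap. SRSF5, a close paralog of SRSF4 and SRSF6, went the other way. It was at 77.8, 73.5 and 82.0 TPM in DMSO and 92.3, 128 and 134 TPM in Chelator, with a log2 change of 0.56 ± 0.13 (adjusted p = 7.5e-05).

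SRSF3 and SRSF7, which also serve as adaptors in mRNA export, SRSF9, a close paralog of SRSF1, and SRSF11 did not pass the test at the gene level. Their log2 changes were −0.08 ± 0.09, −0.02 ± 0.09, 0.09 ± 0.08 and 0.06 ± 0.07, and the groups overlapped in each. The SRSF3 value depends on the correction for transcript length, since without it the log2 change was −0.36 with an adjusted p of 5.11e-08, and that of SRSF9 was 0.29 with an adjusted p of 0.00336. SRSF9 also passed with transcripts under 500 bases left out (0.25, adjusted p = 0.011), as did its coding class (0.24, adjusted p = 0.0371). In all, 5 of the 10 genes fell and 1 rose at an adjusted p under 0.05, against 18.3% and 19.5% of all genes. The same 6 genes did not overlap between groups, where 49.2% of all genes did not. The median log2 change was −0.19 over the 10 genes and 0.02 over the 24540 genes with an adjusted p.

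**Figure D1:**
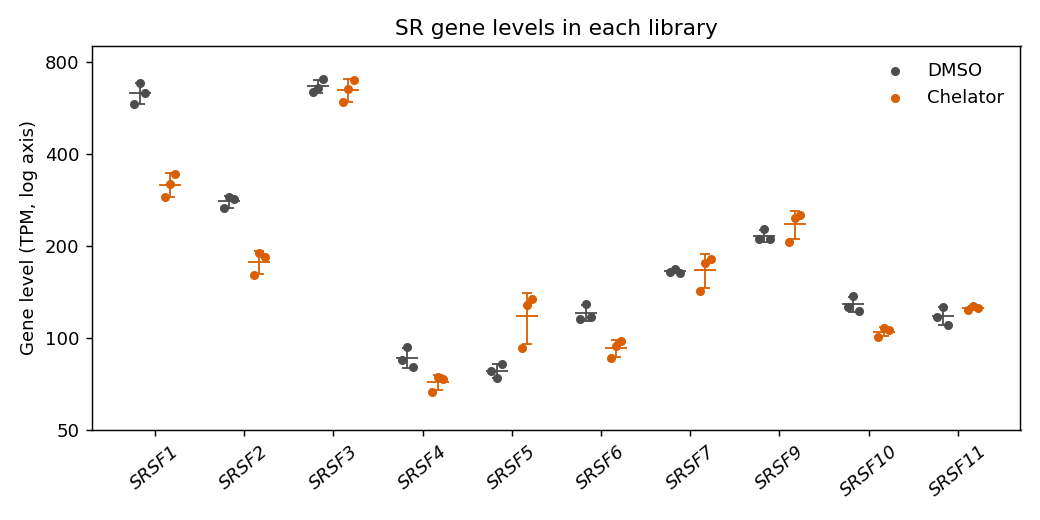
Gene level in TPM (log axis) of the 10 SR genes, with a point per library and a bar for mean ± SD of 3 libraries per group. SRSF1 and SRSF2 in Chelator lie below every DMSO library, SRSF5 above, and SRSF3 shows overlapping groups at 588 to 699 TPM.

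Transcripts that the annotation classes as targets of nonsense-mediated decay took a larger share of SR gene TPM in Chelator. The share of these transcripts rose in 7 of the 10 genes and fell in 0 at an adjusted p under 0.05 (limma on log ratios), where 11.4% of all genes tested rose and 1.74% fell. The genes were SRSF1, SRSF2, SRSF4, SRSF6, SRSF7, SRSF10 and SRSF11. In 3 of them the change also exceeded 5 percentage points, which 7.44% of all genes did in that direction. In 8 of the 10 genes the groups did not overlap, against 37.7% of all genes. The median change was 1.71 points over the 10 genes and 1.03 points over all genes.

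In SRSF2 the decay share was 4.01%, 3.89% and 2.78% in DMSO and 13.3%, 16.4% and 18.9% in Chelator. Every Chelator library was above every DMSO library, and the log2 ratio of decay to other transcripts rose by 2.38 ± 0.21 (SE, adjusted p = 0.00218). In SRSF6 the share was 18.7%, 16.6% and 18.1% in DMSO and 32.9%, 27.9% and 24.3% in Chelator. The ratio rose by 0.86 ± 0.17 on the log2 scale (adjusted p = 0.0251), with no overlap but with a spread of 4.33 points (SD) among the Chelator libraries. In SRSF1 the share was 15.1%, 14.4% and 14.4% in DMSO and 22.8%, 22.6% and 20.4% in Chelator, a rise of 0.71 ± 0.10 in the log2 ratio (adjusted p = 0.00864).

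SRSF7 followed with 8.85%, 7.08% and 7.69% in DMSO and 11.1%, 13.0% and 11.96% in Chelator (adjusted p = 0.027). The share was small but higher in all Chelator libraries in SRSF4, where it was 0.729%, 0.839% and 0.898% in DMSO and 2.56%, 3.36% and 3.11% in Chelator (adjusted p = 0.0112). These SRSF4 values rest on 125 to 141 estimated counts per DMSO library and 389 to 606 per Chelator library. SRSF10 went from a mean of 1.05% ± 0.07 to 2.28% ± 0.31 (SD, n = 3) and SRSF11 from 0.601% ± 0.014 to 1.65% ± 0.37. In SRSF3 the share was 3.78% to 5.23% in DMSO and 3.59% to 4.14% in Chelator, so the groups overlapped (adjusted p = 0.466). SRSF5 and SRSF9 did not pass either, and the SRSF9 share varied from 0.0166% to 1.12% among DMSO libraries.

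The count of 7 depended on which library was left out. It was 7 without Chelator replicate 1, 2 without Chelator replicate 2, 4 without Chelator replicate 3 or DMSO replicate 1, and 3 without DMSO replicate 2 or DMSO replicate 3, and no SR gene fell in any of these fits. With all libraries it was 5 by edgeR on class counts. SRSF1 and SRSF2 kept an adjusted p under 0.05 in each of them, with their highest at 0.0481 and 0.0164.

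Coding transcripts lost share in parallel in several genes. Their share fell in 5 of the 10 genes and rose in 0 at an adjusted p under 0.05, where 12.9% of all genes fell and 2.94% rose, and it fell by over 5 points in SRSF2, SRSF6 and SRSF10, as in 10.7% of all genes. SRSF6 coding transcripts made up 67.3%, 70.2% and 71.2% of the gene's TPM in DMSO and 52.6%, 52.8% and 51.9% in Chelator (adjusted p = 0.00286). SRSF2 coding transcripts went from 93.9%, 94.4% and 95.4% to 82.1%, 77.99% and 75.8% (adjusted p = 0.00121). The groups were apart in both genes, as in 9 of the 10 genes and in 38.5% of all genes. In SRSF1 the coding share was 43.3% to 46.5% in DMSO and 49.2% to 57.5% in Chelator, which missed the threshold (adjusted p = 0.0504). The 5 coding shares that fell became 2 without Chelator replicate 2 and 3 without Chelator replicate 3, DMSO replicate 2 or DMSO replicate 3. By edgeR on counts summed by class, 2 coding shares fell, those of SRSF6 and SRSF3, and the falls in SRSF2, SRSF4, SRSF7 and SRSF10 did not pass (adjusted p = 0.248, 1, 0.42 and 0.516). Over the 3 classes, 7 shares of SR genes were called with all libraries and 4 without Chelator replicate 2.

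The retained-intron class moved differently from gene to gene. It fell in SRSF1, where it took 38.3%, 42.2% and 40.7% of the TPM in DMSO and 28.0%, 24.4% and 21.4% in Chelator. This was a fall in the log2 ratio of −1.06 ± 0.14 (adjusted p = 0.0108), and 2.69% of all genes were called in that direction, with 3.36% past the adjusted p alone. Without Chelator replicate 2 the adjusted p was 0.0580. The class rose in SRSF2, SRSF5 and SRSF9 at an adjusted p under 0.05, each by under 5 points, where 11% of all genes rose. These 3 became 1 without Chelator replicate 2, Chelator replicate 3, DMSO replicate 1 or DMSO replicate 2, and 2 without Chelator replicate 1. Groups were apart in 5 of 9 genes, against 38.5% of all genes. In SRSF5 it was 8.56%, 9.70% and 9.27% in DMSO and 13.3%, 11.96% and 13.0% in Chelator. SRSF3 had the largest retained-intron share of the 9 genes with the class, 58.6% to 66.2% in DMSO and 66.9% to 71.5% in Chelator (adjusted p = 0.0699). By edgeR on class counts the retained-intron share of SRSF3 passed (adjusted p = 4.07e-05), as did its coding share (0.000162), while the rises in SRSF5 and SRSF9 did not (0.137 and 0.569).

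**Figure D2:**
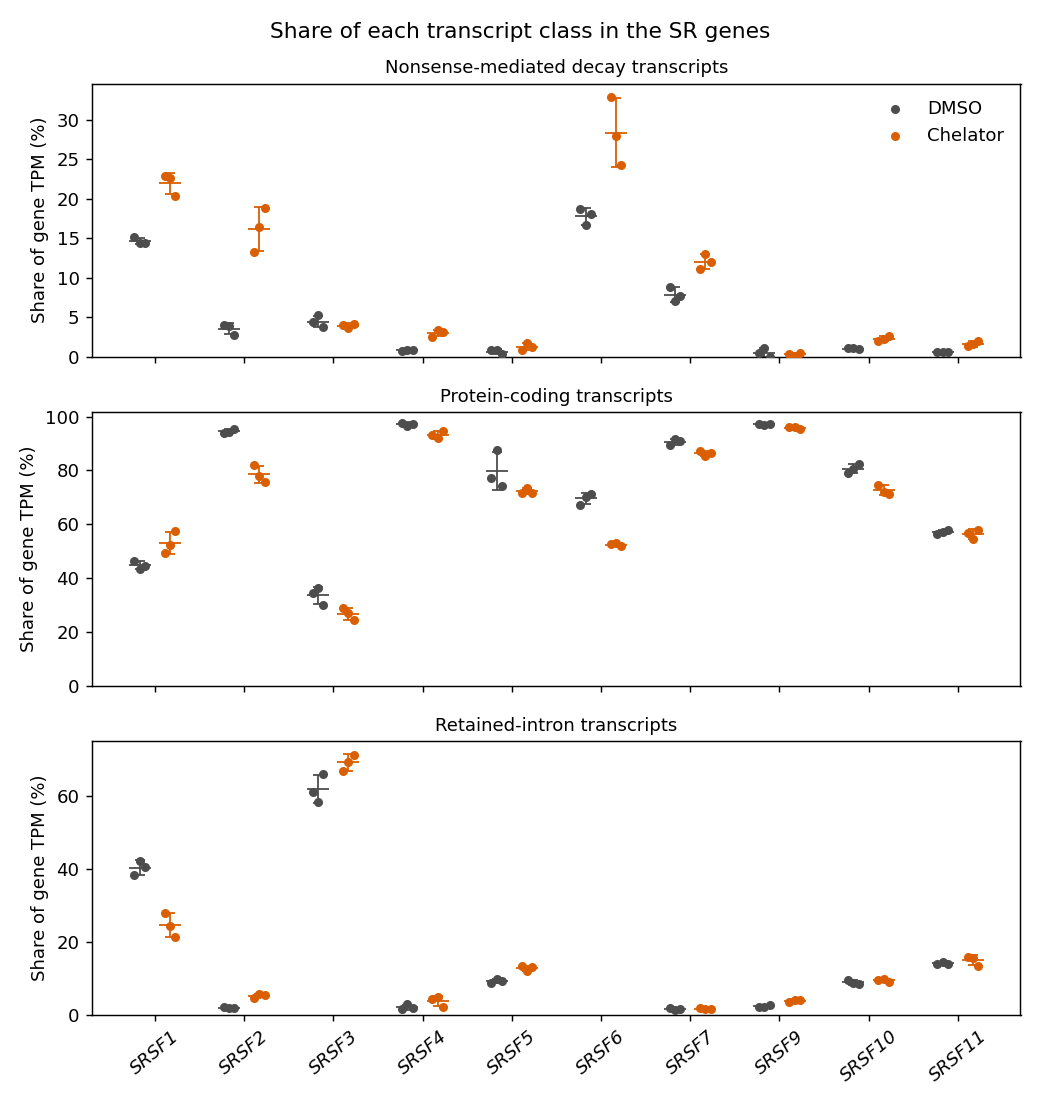
Share of each gene's TPM (%) held by decay, coding and retained-intron transcripts, with a point per library and a bar for mean ± SD of 3 libraries per group. The decay share of SRSF1, SRSF2 and SRSF6 in Chelator lies above every DMSO library, and the retained-intron share of SRSF1 lies below.

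A share can move through either side of its ratio, so the level of each class was also tested on its own counts. Decay transcripts rose in 6 genes and fell in 1 at an adjusted p under 0.05 (DESeq2), against 18.5% and 7.78% of all genes with such transcripts. They were called higher in SRSF2, SRSF4, SRSF5 and SRSF11, where 11.6% of all genes were. In SRSF2 they were at 10.6, 11.2 and 7.85 TPM in DMSO and at 21.2, 30.9 and 34.5 TPM in Chelator, a log2 change of 1.51 ± 0.19 (adjusted p = 4.09e-14). The log2 changes in SRSF4, SRSF5 and SRSF11 were 1.59 ± 0.21, 1.60 ± 0.50 and 1.52 ± 0.38, all at levels under 3 TPM. SRSF7 and SRSF10 rose by 0.59 ± 0.18 and 0.79 ± 0.27. The 6 genes became 3 without Chelator replicate 2.

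SRSF1 was the gene whose decay transcripts fell. They were at 88.1, 98.0 and 91.2 TPM in DMSO and at 65.6, 72.1 and 70.1 TPM in Chelator, a log2 change of −0.45 ± 0.06 (adjusted p = 1.22e-12). Its coding transcripts changed by −0.77 ± 0.11 and its retained-intron transcripts by −1.75 ± 0.08 (adjusted p = 1.68e-98), so that all 3 classes fell and the decay class fell least. In SRSF6 the decay transcript was at 21.6, 21.5 and 21.1 TPM in DMSO and 28.2, 26.2 and 23.7 TPM in Chelator. These values did not overlap but did not pass the test (log2 change 0.25 ± 0.12, adjusted p = 0.0847), while SRSF6 coding transcripts changed by −0.82 ± 0.06.

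Coding transcripts fell in 6 genes and rose in 1, against 28.3% and 21.9% of all genes. After SRSF2, at −0.96 ± 0.07, SRSF6 and SRSF1 came SRSF10 at −0.48 ± 0.05, SRSF3 at −0.40 ± 0.06 and SRSF4 at −0.35 ± 0.06. SRSF5 coding transcripts rose by 0.43 ± 0.13, and 0 coding classes rose without Chelator replicate 2 or Chelator replicate 3. SRSF3 coding transcripts were at 218, 237 and 210 TPM in DMSO and 170, 174 and 170 TPM in Chelator, without overlap, although the gene as a whole did not pass. Retained-intron transcripts of SRSF5 rose by 1.03 ± 0.16 and those of SRSF9 and SRSF2 by 0.82 ± 0.21 and 0.78 ± 0.21, where 19.5% of all genes rose and 7.32% fell. The median change of the decay class was 0.69 over the 10 genes and 0.28 over all genes, and that of the coding class −0.38 and −0.03.

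**Figure D3:**
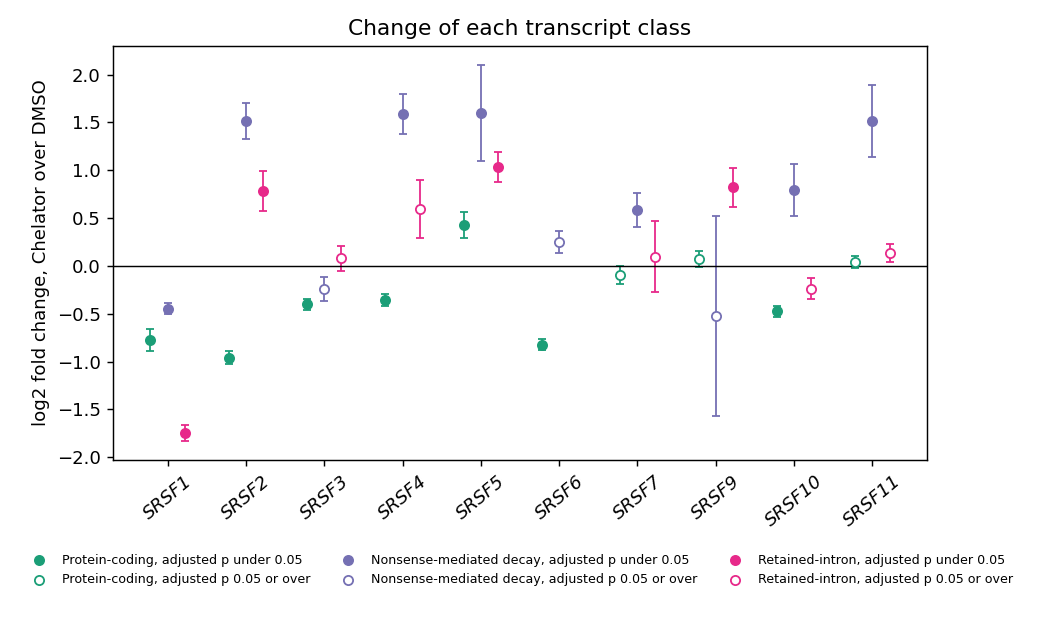
Log2 fold change of normalized counts, Chelator over DMSO, for each transcript class of each SR gene, with bars of ± 1 SE and filled points at an adjusted p under 0.05. Coding points lie below 0 in most genes and decay points above 0 in most, while all 3 SRSF1 points lie below 0.

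Inclusion of single poison exons was measured as percent spliced in (PSI), the TPM of transcripts with the exon over that of transcripts with and without it. Of the 8 exons tested, 5 rose and 0 fell at an adjusted p under 0.05 (limma), where 5.29% of the poison exons of all genes rose and 1.34% fell. The exon called, with a change over 5 points, was that of SRSF6, and 3.89% of all poison exons were called higher. The groups did not overlap in 7 of the 8, against 33.9%. The median change was 1.82 points over the 8 exons and 0.868 points over the 1569 poison exons tested.

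The SRSF6 exon was spliced in at 21.8%, 19.2% and 20.2% in DMSO and at 38.5%, 34.6% and 31.9% in Chelator. The log2 ratio of included to skipped rose by 1.07 ± 0.14 (SE, n = 3 per group, adjusted p = 0.0116). Transcripts that skip the exon were at 77.5, 90.6 and 83.4 TPM in DMSO and 45.0, 49.7 and 50.6 TPM in Chelator. The side without the exon was thus lower in all Chelator libraries, and the side with it was higher in all of them, at 23.7 to 28.2 TPM against 21.1 to 21.6 TPM in DMSO.

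The 195-base SRSF4 exon, chr1:29159864-29160058, was at 0.740%, 0.864% and 0.797% in DMSO and 2.63%, 3.47% and 3.18% in Chelator (log2 ratio 1.84 ± 0.26, adjusted p = 0.0143). The 449-base SRSF7 exon was at 1.20%, 0.658% and 0.810% in DMSO and 2.30%, 2.80% and 3.45% in Chelator (1.66 ± 0.29, adjusted p = 0.0243). A 276-base form of it that starts further downstream and shares its end was at 0.532% to 0.672% and 0.582% to 0.698%, with overlapping groups. The 104-base SRSF2 exon, chr17:76735772-76735875, went from 1.98%, 1.33% and 1.49% to 2.87%, 3.71% and 3.26% (adjusted p = 0.0351). The TPM of SRSF2 transcripts that hold it was 3.53 to 4.94 in DMSO and 4.08 to 5.69 in Chelator, so that side overlapped. The side that skips it includes SRSF2-201, whose quantified length differs from the annotated one.

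The SRSF3 exons differed from each other. The 98-base exon was at 1.43%, 1.47% and 1.85% in DMSO and 3.60%, 3.21% and 6.46% in Chelator (log2 ratio 1.45 ± 0.29, adjusted p = 0.0373). The 456-base exon, included at 9.94%, 11.2% and 9.42% in DMSO and 9.04%, 8.88% and 8.64% in Chelator, did not pass (−0.22 ± 0.11, adjusted p = 0.265). The 117-base SRSF11 exon was at 0.767% to 0.893% and 1.19% to 2.22% and did not pass (adjusted p = 0.156).

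The 5 exons that rose became 4 without Chelator replicate 1, 1 without Chelator replicate 3, 2 without any one DMSO library and 0 without Chelator replicate 2. The SRSF6 exon had an adjusted p of 0.0558 without Chelator replicate 2 and under 0.05 without any other library.

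**Figure D4:**
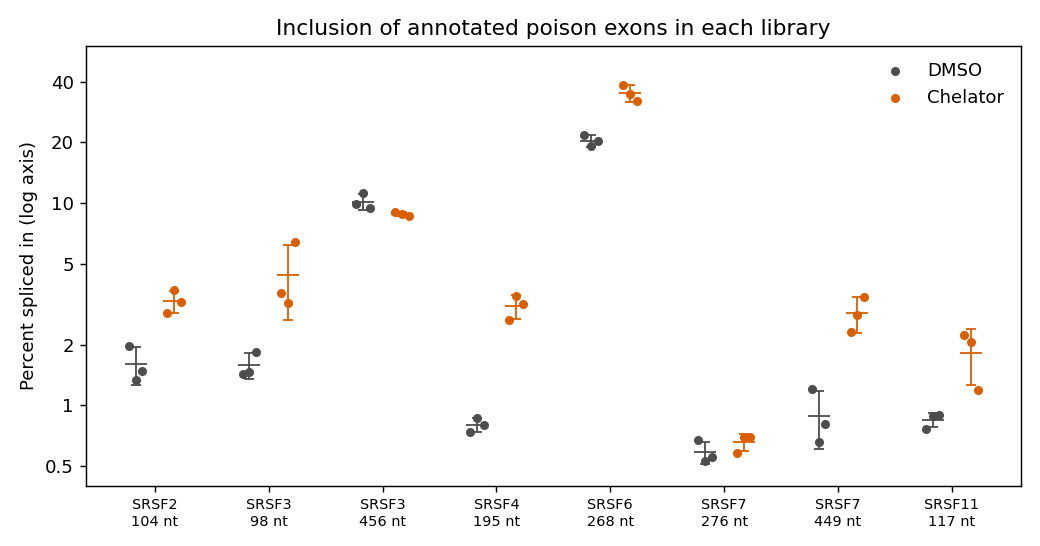
Percent spliced in (log axis) of the 8 annotated poison exons tested in SR genes, with a point per library and a bar for mean ± SD of 3 libraries per group. The SRSF6 exon lies at 19.2% to 21.8% in DMSO and 31.9% to 38.5% in Chelator, and the 456-base SRSF3 exon is the one whose Chelator libraries lie below DMSO.

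Usage of transcripts within the gene changed in SRSF2, SRSF3 and SRSF7 (edgeR, adjusted Simes p under 0.05 and a share change over 5 points), where 9.22% of all genes were called. SRSF1 also met both limits, but through SRSF1-209 alone, which reached the minimum of 10 counts in Chelator libraries and in 0 DMSO libraries, so its call is not support for a change. With SRSF1 the count was 4, and it was 2 without Chelator replicate 3, and 8 by limma's diffSplice. In SRSF2 the decay transcript SRSF2-208, spliced within its 3' end, was at 7.11, 9.33 and 5.68 TPM in DMSO and 19.0, 26.7 and 30.2 TPM in Chelator. Its mean share rose by 11.5 points (adjusted p = 0.00121), and it made up most of the SRSF2 decay class. The reference coding transcript SRSF2-202 was at 165, 184 and 169 TPM in DMSO and 96.6, 99.5 and 99.9 TPM in Chelator, and its share changed by −5.92 points. Its usage did not pass by edgeR (adjusted p = 1) but did by limma (8.3e-06). The largest share change in SRSF2 was −12.7 points in the coding transcript SRSF2-201, named here after its values were seen. The quantified form of SRSF2-201 was 572 bases long, against 1867 in the annotation that gave its class and exons. SRSF2-201 enters the SRSF2 gene level and coding class with this mismatch. It was at 72.4, 78.2 and 58.6 TPM in DMSO and 21.9, 21.3 and 21.9 TPM in Chelator, without overlap, and its usage did not pass by edgeR (adjusted p = 0.518).

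In SRSF1 the transcript SRSF1-202, of 689 bases and annotated as retained intron although it holds 0 introns of the reference transcript whole, was at 223, 286 and 257 TPM in DMSO and 80.6, 77.9 and 73.8 TPM in Chelator. This was the widest gap among the named SRSF1 transcripts present in both groups. The decay transcript SRSF1-206 was at 87.7, 96.6 and 90.9 TPM and 63.5, 69.3 and 67.3 TPM. The usage of neither passed the edgeR test (adjusted p = 0.44 and 0.564), while SRSF1-206 passed by limma (adjusted p = 0.0233). A short coding transcript, SRSF1-209 of 568 bases, was assigned 0, 4.14 and 0 counts in DMSO and 127, 1292 and 1933 counts in Chelator. These values are given as a description, since the transcript was tested through the Chelator libraries that hold it, and it could not be tested without any one of them.

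In SRSF3, SRSF6 and SRSF7 the long reference transcript was lower in every Chelator library, while shorter transcripts differed between the genes. SRSF3-202, of 4228 bases, was at 53.7, 62.6 and 51.7 TPM in DMSO and 20.5, 19.2 and 16.5 TPM in Chelator, and its usage fell (adjusted p = 2.36e-07). The 869-base coding transcript SRSF3-208 was lower too, at 158 to 174 TPM in DMSO and 150 to 155 TPM in Chelator, without overlap. SRSF7-201, of 2356 bases, was at 46.3, 48.3 and 41.5 TPM in DMSO and 25.05, 24.6 and 20.9 TPM in Chelator (usage adjusted p = 0.00381). That adjusted p was 0.0708 without Chelator replicate 3 and 0.074 with a minimum of 1 count in at least 1 library. The 1050-base coding transcript SRSF7-202 was at 78.9 to 82.9 TPM and 75.7 to 106 TPM, so its groups overlapped. SRSF6-201, of 4353 bases, was at 49.0, 59.2 and 50.7 TPM in DMSO and 24.3, 24.0 and 23.9 TPM in Chelator, though its usage did not pass by edgeR (adjusted p = 0.578). By limma it did (adjusted p = 0.000416), as did the decay transcript SRSF6-202 (0.00479). SRSF6-202, of 1680 bases, was at 21.1 to 21.6 TPM in DMSO and 23.7 to 28.2 TPM in Chelator.

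SRSF3-206, a transcript of 544 bases in the retained-intron class that also holds 0 reference introns whole, held most of the SRSF3 TPM in all 6 libraries. It was at 352, 336 and 428 TPM in DMSO and 356, 412 and 461 TPM in Chelator, with overlapping groups, and its share went from 56.0% to 63.4% (adjusted p = 0.0195). That call was lost without Chelator replicate 2, Chelator replicate 3, DMSO replicate 1 or DMSO replicate 2, with adjusted p from 0.0801 to 0.283. With all libraries it was also lost where the minimum was 1 count in at least 1 library (adjusted p = 0.198). In the other 5 genes no transcript was called, and 1.48% of all transcripts tested were.

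**Figure D5:**
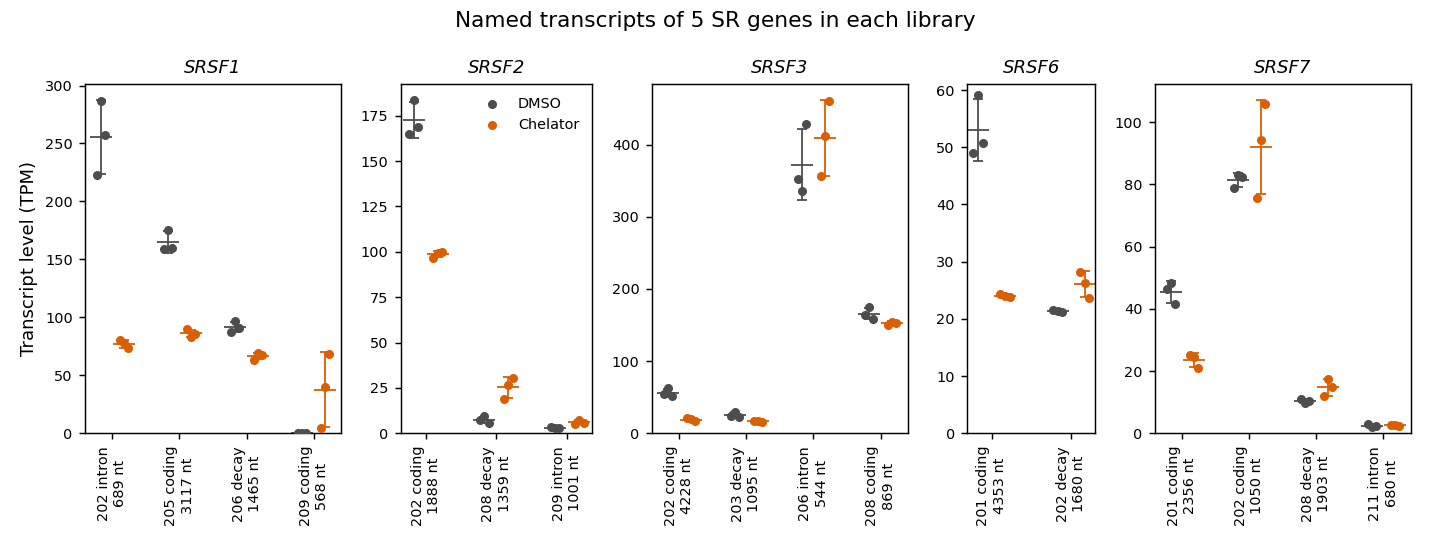
Level in TPM of the named transcripts of SRSF1, SRSF2, SRSF3, SRSF6 and SRSF7, labelled by class (coding, decay or retained intron) and length, with a point per library and a bar for mean ± SD of 3 libraries per group. SRSF1-202, SRSF2-202, SRSF3-202, SRSF6-201 and SRSF7-201 are lower in every Chelator library, and SRSF2-208 is higher.

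How well these isoforms can be told apart was measured as the share of their 31-base words that occur in no other transcript of the gene. It was 67.2% for SRSF3-202, 61.9% for SRSF6-201 and 42.8% for SRSF3-206, but 1.82% for SRSF6-202, 0.992% for SRSF4-208 and 0 for SRSF2-208 and SRSF7-201. Values of the last group rest on how salmon divided shared reads. SRSF1 shares 31.3% of its words with an overlapping readthrough gene, ENSG00000266086, SRSF9 shares 41.0% with GATC, SRSF2 shares 23.5% with MFSD11 on the opposite strand and SRSF6 shares 12.6% with ENSG00000288000. Single transcripts share more, with 84.8% of SRSF1-202, 91.1% of SRSF1-206, 76.0% of SRSF1-209, 39.4% of SRSF2-208 and 47.3% of SRSF6-202 found in other genes. Levels of these genes and transcripts are uncertain, by an amount that was not tested, while SRSF7 shares 0%.

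The kinases that act on SR proteins moved in both directions. Of 8 kinase and importer genes 3 rose and 3 fell at an adjusted p under 0.05, against 19.5% and 18.3% of all genes. CLK1, a nuclear kinase of SR proteins, was at 7.80, 7.82 and 6.55 TPM in DMSO and 14.4, 17.6 and 18.3 TPM in Chelator, without overlap (log2 change 1.15 ± 0.12, adjusted p = 2.22e-19). CLK4 and CLK3 rose by 0.76 ± 0.19 and 0.44 ± 0.12. SRPK1, the main cytoplasmic kinase, was at 151, 191 and 161 TPM in DMSO and 92.2, 86.9 and 83.9 TPM in Chelator (−0.96 ± 0.07, adjusted p = 1.22e-36). SRPK2 and TNPO3 changed by −0.26 ± 0.07 and −0.25 ± 0.07. CLK2 and SRPK3 did not pass.

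Of the other SR and SR-like genes, 0 of 6 tested rose and 3 fell, against 19.5% and 18.3% of all genes, TRA2A by −0.36 ± 0.07, TRA2B by −0.27 ± 0.09 and SRRM1 by −0.16 ± 0.06 on the log2 scale. TRA2B did not pass without Chelator replicate 1, DMSO replicate 1 or DMSO replicate 3 (adjusted p from 0.0619 to 0.0852), nor SRRM1 with TMM (0.118), by edgeR (0.057), without Chelator replicate 2 (0.0557) or without DMSO replicate 3 (0.0684). SRSF12 was not tested, with 0 to 7 counts per library. The coding share fell in 4 of the 6, SRSF8, TRA2A, SRRM1 and SRRM2, against 12.9% of all genes, and rose in 0. TRA2A, which activates exons together with SR proteins, had the lowest adjusted p of them. Its coding share went from 87.5%, 84.5% and 88.4% in DMSO to 75.4%, 69.5% and 69.7% in Chelator (limma adjusted p = 0.00612). Of 10 factors of nonsense-mediated decay, 0 rose at an adjusted p under 0.05, against 19.5% of all genes. Among those that fell was SMG8, by −0.56 ± 0.10 on the log2 scale. SMG6, at −0.18 ± 0.08 (adjusted p = 0.0474), did not pass with TMM (0.152), by edgeR (0.0616) or when any library but DMSO replicate 3 was left out (0.0644 to 0.127). UPF1, the central helicase, was at 69.9 to 82.5 TPM and 69.4 to 72.9 TPM and did not pass (adjusted p = 0.22).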

How the data were processed

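Polyadenylated RNA of K562 cells was sequenced as paired-end reads in 6 libraries, 3 per group by the sample labels. Per the labels, the submitters' processing notes name Salmon 1.10.2 and build hg38. The strand setting and the transcript annotation are not given in the sources used here. The deposited estimated counts per transcript come from the authors' salmon runs and are not whole where reads are shared. The deposited TPM values are those counts divided by salmon's effective length and scaled. Depth was 78.6 to 101.1 M counts (M, 1e+06) per library.

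GENCODE release 44 on GRCh38 gave each transcript its gene and class by identifier, with 251142 of 252045 equal in version and length, 470 that differed and 433 unmatched ones left out. The SR genes, gene lists and tests were chosen with earlier results of these data known. Sums per gene or gene class were rounded and tested with DESeq2 1.42.0 (Wald test, total above 10, average transcript length as offset). Shares and exon inclusion were tested with limma 3.58.1 on log2((TPM + 0.1)/(TPM + 0.1)) where both sides reached a mean of 0.5 TPM. These fold changes understate the change of low values. Transcript usage was tested with edgeR 4.0.16 (diffSpliceDGE, at least 10 counts in at least 3 libraries). P-values were adjusted by Benjamini-Hochberg over all features of a test, and for the limma class shares over all genes within each class. With DESeq2 this followed its independent filter on low counts. A call also needed an absolute log2 change above 1, or a share change above 5 points. If the replicates do not stem from separate cultures, the p-values measure technical spread only. Scripts were tested on simulated data with known changes. Named transcripts were the most abundant of each class per gene and any transcript called, exons were all poison exons tested, and up to 6 genes per other list were those of smallest adjusted p. Alternatives were other size factors, filters, offsets, tests and pseudocounts, transcripts under 500 bases left out, a replicate block, and each library left out. Some items are not reported here.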

Additional observations from a re-analysis of the deposited data

How the results depend on the processing

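The gene level results were the most stable, with 6 SR genes at an adjusted p under 0.05 without any one library. The number called was 1 with all libraries, 0 to 1 with a library left out, 0 with TMM size factors and 0 without the length offset, since SRSF1 lies at the threshold. SR class shares at an adjusted p under 0.05 numbered 16, 5 to 17 with a library left out and 10 by edgeR on class counts, and those called 7, and 4 to 9. Over all genes 1734 class shares were called, 449 to 1844 with a library left out and 739 by edgeR. SR poison exons at an adjusted p under 0.05 numbered 5, 0 to 4 with a library left out and 3 without a TPM minimum, and the called exon 0 to 1. Over all skipped exons 663 were called, 113 to 706 with a library left out and 1092 with a pseudocount of 1 TPM. Transcript usage was called in 4 SR genes and 1101 genes in all, in 2 to 5 and 539 to 1063 with a library left out, and in 8 and 3184 by limma. Apart from fewer libraries, the cause of these shifts was not tested.

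The labels link libraries across the groups by replicate number only. Between same-numbered libraries the correlation of deviations from the group means over 15222 genes was −0.00363, 0.125 and 0.0939 for replicates 1, 2 and 3. Each library correlated best with its own number in replicates 2 and 3 but not in replicate 1. Deviations within a group are tied to each other, so these values cannot decide whether same-numbered libraries form pairs. With the replicate number as a block, SR class shares at an adjusted p under 0.05 numbered 10, SR poison exons 1, all class shares called 937 and all skipped exons called 229.

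Some values that did not pass the test changed sign. Centring on the mean change, which moved the median log2 change of all genes from 0.016 to −0.090, gave log2 changes of −0.046 for SRSF11, −0.013 for SRSF9, −0.061 and −0.033 for their coding classes and −0.026 and −0.0091 for the retained-intron classes of SRSF3 and SRSF7. Without the length offset SRSF11 was at −0.025 and its coding class at −0.090, and with TMM SRSF7 was at 0.022. The block gave 0.084 for the SRSF9 decay class, and leaving out transcripts under 500 bases gave −0.78 points for SRSF9-201. With a library left out, log2 changes ran from −0.092 to 0.062 for SRSF7, from −0.041 to 0.21 and from −0.10 to 0.31 for the retained-intron classes of SRSF3 and SRSF7 and from −1.10 to 0.54 for the SRSF9 decay class. Shares ran from −1.44 to 0.355 points for SRSF11 coding transcripts, from −0.453 to 0.0991 for SRSF9 decay transcripts, from −0.715 to 2.51 for SRSF1-205, from −1.57 to 0.527 for the leading SRSF11 coding transcript, from −0.166 to 0.122 for SRSF5-212, from −0.0344 to 0.278 for SRSF7-211 and from −0.179 to 0.109 for SRSF9-211. Decay transcripts of SRSF5, SRSF9, SRSF10 and SRSF11 had at most 314 counts in any library, which limits the precision of their shares.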
